A study of Mus musculus with 2 samples.

Results

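The 31 genes described here encode enzymes and regulators of cholesterol and fatty acid synthesis, chosen by symbol from the 53717 features of a single-cell RNA dataset of mouse hippocampus. They were ordered by role into a mevalonate arm of 7 genes, a sterol arm of 11, a group of 6 regulators and carriers, and a fatty acid arm of 7. All 31 were found in both libraries, with between 179 UMIs (Idi1) and 30275 UMIs (Scd2) in the deposited NeuroD1 library and between 66 (Idi1) and 12733 (Scd2) in the deposited GFP library. A UMI is a molecular tag that counts 1 captured RNA molecule.

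Cells make cholesterol from acetyl-CoA by way of mevalonate and squalene, and make fatty acids from the same precursor. In the brain, which is cut off from blood lipoproteins, glia supply much of this cholesterol: oligodendrocytes for myelin, and astrocytes for export on apolipoprotein E particles. The transcription factors SREBP-2 (Srebf2), which acts mainly on sterol genes, and SREBP-1 (Srebf1), which acts mainly on fatty acid genes, are carried by SCAP out of the endoplasmic reticulum when sterols are low, and INSIG proteins hold them back when sterols are high.

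Both groups were 5xFAD mice, which carry familial Alzheimer's disease transgenes and form amyloid plaques, with 6 months recorded as the time. Hippocampi of the NeuroD1 group had been injected with AAV9-GFAP::NeuroD1-P2A-GFP, a viral vector in which the GFAP promoter, active mainly in astrocytes, drives the proneural transcription factor NeuroD1 together with GFP. Those of the GFP group had received AAV9-GFAP::GFP, so both groups carried the transgenic strain, the virus and GFP. Tissue was taken 3 weeks after injection from 3 mice per group, and each group is 1 library. How the mice were combined is not stated in the labels.

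With 1 library per group there was no replicate, so no test between groups was made. The 95% intervals below cover counting error only, and a ratio is CPM (UMIs counted per 1e+06 UMIs of the same cells) in the NeuroD1 library over CPM in the GFP library. The NeuroD1 library was the deeper one, with 12784 kept cells at a median of 2554.5 UMIs, against 11082 cells at 1169 UMIs in the GFP library, and 91 kept barcodes occurred in both. Other measures also separated the libraries: in astrocyte-like cells Ttr, an RNA of the choroid plexus, was at 9650 CPM (NeuroD1) and 2055 CPM (GFP), and Xist, from the inactive X chromosome, had 1 UMI (NeuroD1) and 420 UMIs (GFP). Ddx3y, from the Y chromosome, had 867 UMIs (NeuroD1) and 0 UMIs (GFP) in the same cells. These sex-linked RNAs thus divided the libraries in the same way as the vectors, in every ratio below. Ebp and Nsdhl are on the X chromosome. The 15 astrocyte markers, which served to name the astrocyte-like class, summed to 41621 CPM (NeuroD1) and 47932 CPM (GFP) in it. All 15 were also detected in microglia-like cells, at a sum of 844 CPM (NeuroD1) and 1343 CPM (GFP). Their detection is therefore no separate check of the name. The delivered gene gave no check of the labels. The vector feature ND1 had 0 UMIs in each of the 9 classes with at least 100 cells per library. In astrocyte-like cells the mouse gene Neurod1 was at 1.28 CPM from 14 UMIs (NeuroD1) and 0.804 CPM from 2 UMIs (GFP). Its ratio of 1.60 had an interval of 0.367 to 14.5, which holds 1. What part these differences have in the results was not tested.

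Of the regulators named above, the SREBPs act on short promoter sequences. Windows from 250 bases before to 50 bases after the transcription start were therefore searched (RefSeq, build GRCm38.p6), which held 25 of the 31 genes. A sterol regulatory element written as TCACNCCAC, on either strand, was in 1 of the 25 genes, Hmgcs1, and in 1.44% of all 27025 genes with a window. CCAAT, the box bound by NF-Y, which works together with SREBPs on sterol genes, was in 21 of the 25 genes and in 41.1% of all genes. The E-box CACGTG was in 5 of the 25 and in 8.09% of all genes. Windows are shown for the enzyme that makes HMG-CoA (Hmgcs1, chr13:119690101-119690400, plus strand), for a sterol enzyme and a regulator that were higher in NeuroD1-library astrocyte-like cells (Msmo1, chr8:64733529-64733828, minus strand, and Insig1, chr5:28071162-28071461, plus strand), and for a fatty acid enzyme that was lower there (Fasn, chr11:120824498-120824797, minus strand). Capitals mark CCAAT or its reverse complement ATTGG and, in Hmgcs1, the sterol element TCACCCCAC.
Hmgcs1: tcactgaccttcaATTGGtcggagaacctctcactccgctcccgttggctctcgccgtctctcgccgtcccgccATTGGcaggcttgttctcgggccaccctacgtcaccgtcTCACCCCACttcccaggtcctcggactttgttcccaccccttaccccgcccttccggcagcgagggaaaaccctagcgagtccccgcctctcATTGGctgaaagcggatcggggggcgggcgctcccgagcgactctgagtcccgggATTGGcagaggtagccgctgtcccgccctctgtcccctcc
Msmo1: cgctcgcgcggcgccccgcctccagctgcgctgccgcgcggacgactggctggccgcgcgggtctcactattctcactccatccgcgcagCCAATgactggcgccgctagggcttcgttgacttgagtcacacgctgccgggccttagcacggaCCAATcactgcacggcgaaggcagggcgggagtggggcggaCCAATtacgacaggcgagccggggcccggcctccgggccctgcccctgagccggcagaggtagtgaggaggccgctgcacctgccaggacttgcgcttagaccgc
Insig1: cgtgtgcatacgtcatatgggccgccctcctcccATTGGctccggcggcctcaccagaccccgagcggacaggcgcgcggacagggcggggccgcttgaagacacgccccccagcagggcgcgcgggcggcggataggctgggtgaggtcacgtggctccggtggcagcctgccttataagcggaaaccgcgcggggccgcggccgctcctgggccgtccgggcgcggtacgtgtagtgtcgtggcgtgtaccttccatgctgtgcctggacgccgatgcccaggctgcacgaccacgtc
Fasn: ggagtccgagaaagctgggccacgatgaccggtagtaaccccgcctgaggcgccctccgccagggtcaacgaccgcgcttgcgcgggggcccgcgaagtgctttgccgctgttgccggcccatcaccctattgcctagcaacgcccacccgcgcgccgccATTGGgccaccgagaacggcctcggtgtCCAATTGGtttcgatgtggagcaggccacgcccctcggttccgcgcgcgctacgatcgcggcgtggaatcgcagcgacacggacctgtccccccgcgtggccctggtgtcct
The Hmgcs1 element began 137 bases before the start, between its CCAAT boxes, of which there were 4. Msmo1 and Fasn had 3 boxes each and Insig1 had 1, with an E-box CACGTG, in lower case above, that began 101 bases before the start. None of these matches overlapped a match of another of the 3 motifs, although 2 CCAAT boxes of opposite strand overlapped in Fasn. A match is a run of letters, not a bound site, and Fasn and Msmo1 have equal numbers of CCAAT boxes while their astrocyte-like ratios below lie on opposite sides of 1.

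Astrocyte-like cells held the highest level of more of these genes than any other class. Cells had been grouped into classes by marker genes, without using these 31 genes, and 12 classes had at least 30 cells in each library. The astrocyte-like class was highest in both libraries for 11 of 31 genes (35.5%), against 4.61% of 14775 genes measured. These were Mvd, Fdft1, Cyp51, Tm7sf2, Msmo1, Nsdhl, Sc5d, Dhcr7, Srebf1, Acss2 and Fasn, among them 7 of the 11 sterol arm genes. Msmo1, the sterol C4-methyl oxidase, stood well above its next class: it was at 626 CPM (NeuroD1) and 379 CPM (GFP) in astrocyte-like cells, and that class was at 189 CPM (oligodendrocyte-like, NeuroD1) and 199 CPM (neuron-like, GFP), with no overlap of counting intervals. Tm7sf2, a sterol reductase, was at 53.4 CPM (NeuroD1) and 32.6 CPM (GFP), with the next class at 18.3 CPM (NeuroD1, no overlap of intervals) and 10.5 CPM (GFP, intervals overlapping). Of the 11 genes, Msmo1 and Srebf1 stood clear of the next class in both libraries. The intervals overlapped in both for Cyp51, Nsdhl, Dhcr7 and Fasn, in the NeuroD1 library for Mvd, and in the GFP library for Fdft1, Tm7sf2, Sc5d and Acss2.

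Oligodendrocyte-like cells led for 8 genes (NeuroD1) and 0 genes (GFP), and neuron-like cells for 1 gene (NeuroD1) and 9 genes (GFP). No share of all genes is given for these counts per library. Of the 9, Hmgcs1 alone stood clear of the next class, and the others overlapped it within counting error. Of the 8, Lss, Insig1, Scap and Acaca overlapped the next class. Over all 31 genes the leading class was the same in both libraries for 13 (41.9%), close to the 46.5% of all genes. Outside astrocyte-like cells, agreement held for Stard4 and Acly. Stard4, a carrier that moves cholesterol between membranes, was at 82.2 CPM (NeuroD1) and 60.0 CPM (GFP) in endothelial cell-like cells, and at 13.1 CPM (NeuroD1) and 10.1 CPM (GFP) in astrocyte-like cells. The next classes, lymphocyte-like and neuron-like, had few UMIs and overlapped it within counting error. Acly, which makes cytosolic acetyl-CoA from citrate, was highest in neuron-like cells, at 104 CPM (NeuroD1) and 143 CPM (GFP), but the next class overlapped within counting error. Microglia-like cells had a median level of 12.4% (NeuroD1) and 16.5% (GFP) of each gene's highest class, and 4 genes (Ebp, Dhcr7, Insig2 and Acly) reached 25% in both. RNA released from other cells can add to such low levels, and its share in them was not tested.

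**Figure D1:**
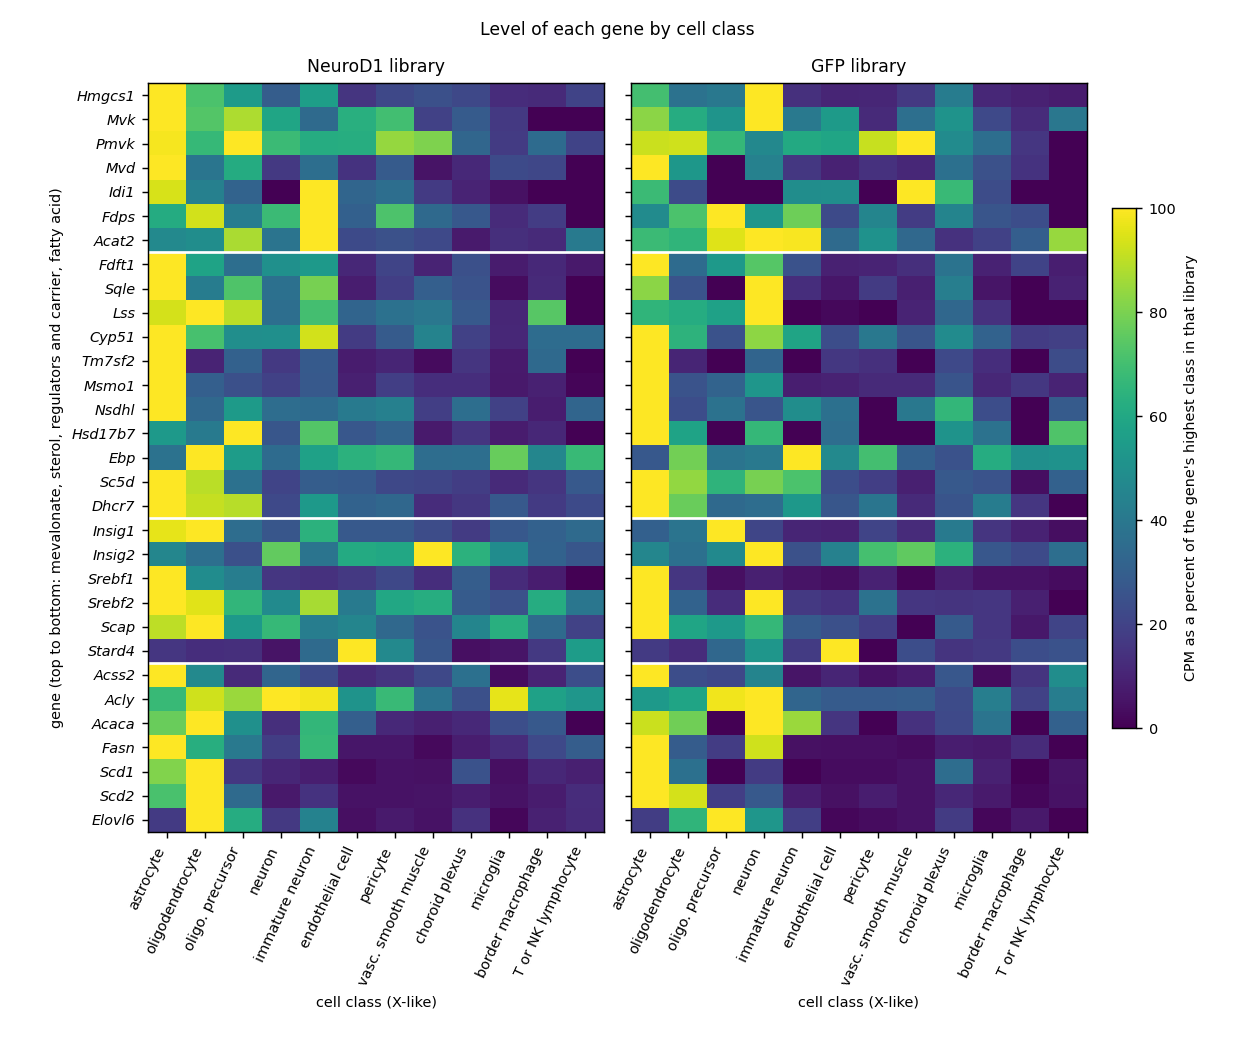
Level of each of the 31 genes in 12 marker-named cell classes, as CPM in percent of the gene's highest class in the same library (NeuroD1 library left, GFP library right). Most sterol arm genes are brightest in astrocyte-like cells in both panels, and Stard4 in endothelial cell-like cells.

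Across the gene groups, the sterol and mevalonate arms were higher in the NeuroD1 library in both macroglial classes, and the regulators and fatty acid arm were lower in its astrocyte-like cells. The sterol arm summed to 871 CPM (NeuroD1) and 527 CPM (GFP) in oligodendrocyte-like cells, a ratio of 1.65 (1.57 to 1.74). In astrocyte-like cells it summed to 1600 CPM (NeuroD1) and 1103 CPM (GFP), a ratio of 1.45 (1.39 to 1.51). The mevalonate arm had ratios of 1.44 in oligodendrocyte-like and 1.36 in astrocyte-like cells. Sterol and mevalonate ratios were also above 1 in endothelial cell-like (1.44 and 1.37), pericyte-like (1.67 and 1.63) and immature neuron-like cells (1.99 and 2.18). They were below 1 in microglia-like (0.912 and 0.968, intervals holding 1), choroid plexus epithelium-like (0.802 and 0.568) and neuron-like cells (0.642 and 0.511). The fatty acid arm was at 1334 CPM (NeuroD1) and 2194 CPM (GFP) in astrocyte-like cells (0.608, interval 0.589 to 0.627), and at 1815 CPM (NeuroD1) and 1911 CPM (GFP) in oligodendrocyte-like cells (0.950).

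**Figure D2:**
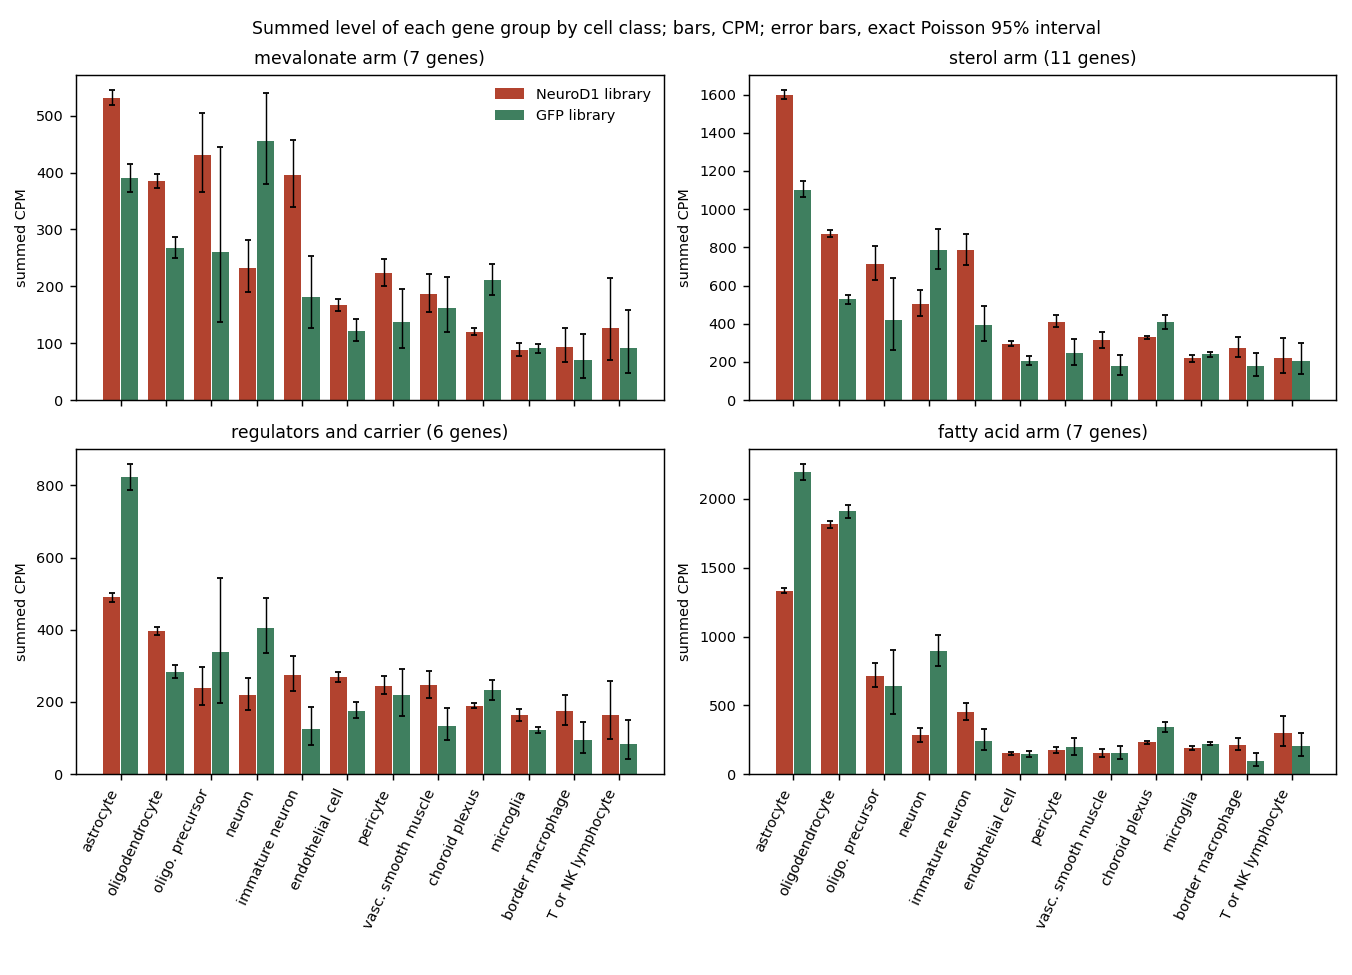
Summed CPM of each gene group in 12 cell classes, with the NeuroD1 library left of the GFP library and exact Poisson 95% intervals. The sterol arm stands at 1600 CPM (NeuroD1) and 1103 CPM (GFP) in astrocyte-like cells, and the fatty acid arm at 1334 CPM (NeuroD1) and 2194 CPM (GFP).

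Gene by gene, a difference was counted at 1.5-fold or more, over genes whose 2 sums together reached 20 UMIs. In oligodendrocyte-like cells 16 of 31 genes were at least 1.5-fold higher in the NeuroD1 library, against 12.9% of all genes in those cells, and 0 were as far lower, against 15.1%. Their median log2 ratio was 0.57, beside 0.03 over all genes. Within its clusters the share was smaller: in cluster 0, 12 of 31 were higher, against 23.6% of all genes, and 1 lower, against 17.2%, and in cluster 2, 7 of 29 measured were higher, against 17.4%, and 3 lower, against 23.2%, with medians of 0.32 and 0.26. In astrocyte-like cells 7 genes were higher, against 11.2% of all genes, and 7 were lower, which is 22.6% of the list against 25.8% of all genes. The median there was 0.27, beside -0.15 over all genes. In endothelial cell-like cells 12 were higher, against 22.9%, and 2 lower, against 12.7%, with medians of 0.43 and 0.15 over all genes. Relative to the all-gene median 7 were higher, and 6 with cells thinned to 500 UMIs. No share of all genes is given for either setting. In cluster 4, 9 of 28 measured were higher, against 30.7%, and 2 lower, against 17.8%, with a median of 0.06, and in cluster 10, 13 of 19 were higher, against 14.9%, and 2 lower, against 25.1%. In microglia-like cells 4 of 30 measured genes were higher, against 35.0%, and 9 lower, against 18.2%, with medians of -0.11 and 0.31 over all genes. Taken relative to the all-gene median, the microglia-like split was 2 higher and 12 lower, again without a share of all genes beside it.

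**Figure D3:**
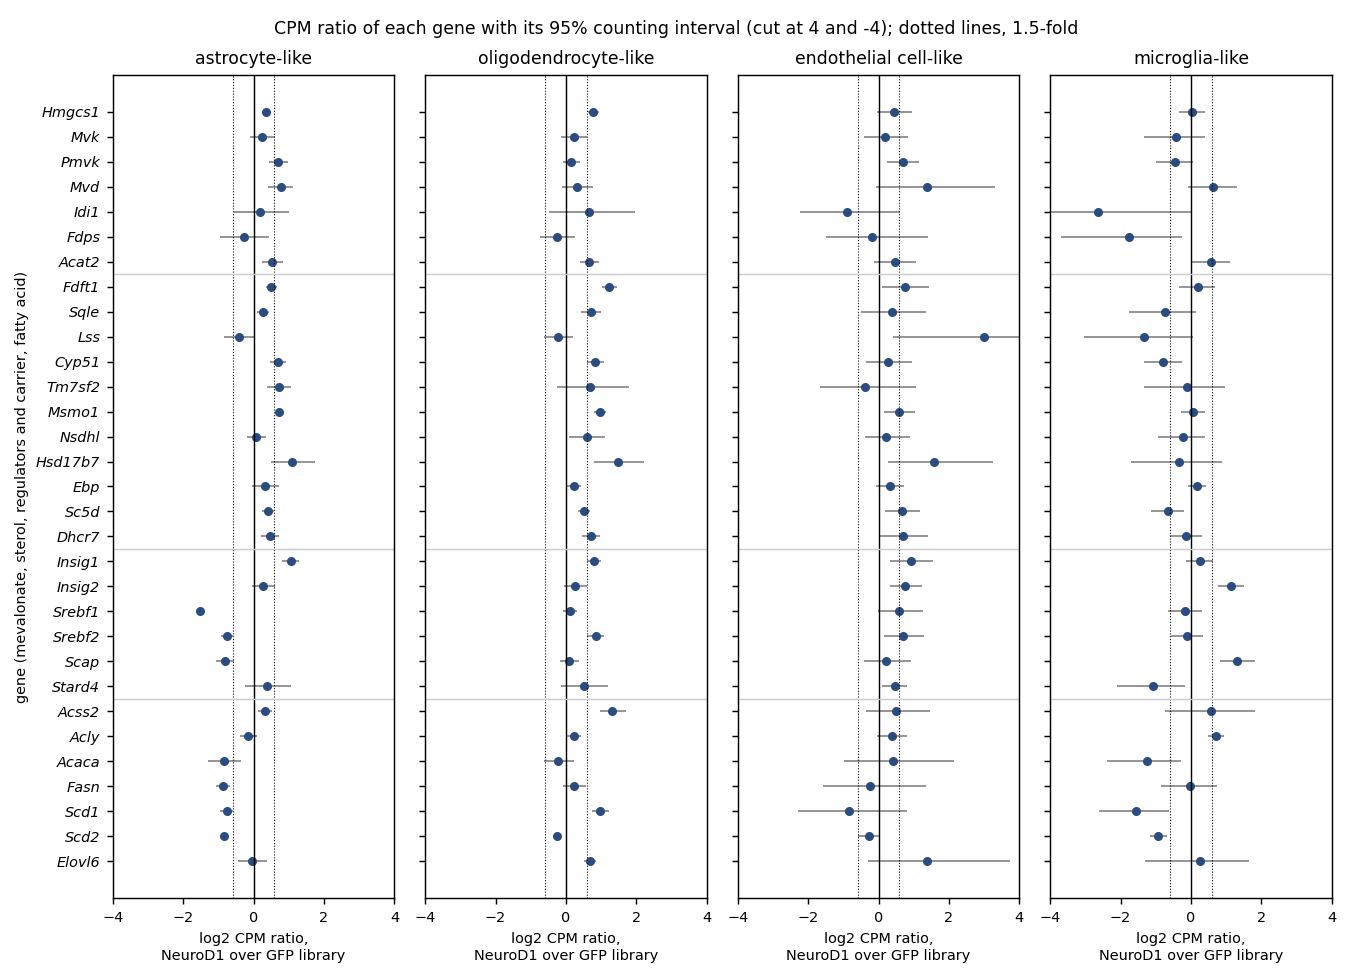
Log2 ratio of CPM (NeuroD1 library over GFP library) of each of the 31 genes in 4 cell classes, with 95% counting intervals cut at 4 and -4 and dotted lines at 1.5-fold. In astrocyte-like cells Insig1 and Msmo1 (plain ratios of 2.07 and 1.65) lie to the right of the line of equal levels. Srebf1 (plain ratio of 0.350) lies to its left.

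In the mevalonate arm, Hmgcs1, which makes HMG-CoA, was at 271 CPM (NeuroD1) and 211 CPM (GFP) in astrocyte-like cells (1.28, interval 1.17 to 1.41), less than the 1.5-fold set here, while in oligodendrocyte-like cells its ratio was 1.70. Mvd, the mevalonate diphosphate decarboxylase, was at 54.0 CPM (NeuroD1) and 31.8 CPM (GFP) in astrocyte-like cells (1.70), and Pmvk, which phosphorylates phosphomevalonate, at 89.8 CPM (NeuroD1) and 55.1 CPM (GFP) (1.63). In oligodendrocyte-like cells these 2 genes differed less, with ratios of 1.25 for Mvd and 1.10 for Pmvk. Mvk, the mevalonate kinase, had ratios of 1.16 in oligodendrocyte-like and 1.19 in astrocyte-like cells. Acat2, which condenses acetyl-CoA, had ratios of 1.58 in oligodendrocyte-like and 1.45 in astrocyte-like cells. Fdps, the farnesyl diphosphate synthase, had ratios of 0.842 in oligodendrocyte-like and 0.827 in astrocyte-like cells, with intervals that hold 1. Idi1, the isopentenyl diphosphate isomerase, had at most 89 UMIs in any of the 4 compared classes, so that its ratios of 1.56 in oligodendrocyte-like and 0.539 in endothelial cell-like cells have intervals that hold 1. Acat2 and Idi1 have close paralogs or overlapping neighbours and Fdps has pseudogenes, so their counts are uncertain.

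In the sterol arm, 8 of 11 genes were at least 1.5-fold higher in NeuroD1-library oligodendrocyte-like cells and 4 of 11 in its astrocyte-like cells, with 0 lower in either. Fdft1, the squalene synthase that commits the pathway to sterols, was at 151 CPM (NeuroD1) and 64.7 CPM (GFP) in oligodendrocyte-like cells (2.34, interval 2.02 to 2.71). In astrocyte-like cells it was at 261 CPM (NeuroD1) and 185 CPM (GFP) (1.42). Sqle, the squalene epoxidase, was at 65.7 CPM (NeuroD1) and 40.3 CPM (GFP) in oligodendrocyte-like cells (1.63) and at 156 CPM (NeuroD1) and 130 CPM (GFP) in astrocyte-like cells (1.20). Lss, the lanosterol synthase that follows it, was not higher in either, with ratios of 0.856 (oligodendrocyte-like) and 0.753 (astrocyte-like) and intervals that hold 1. Of the enzymes that trim lanosterol, Cyp51 was at 91.5 CPM (NeuroD1) and 51.6 CPM (GFP) in oligodendrocyte-like cells (1.77) and at 129 CPM (NeuroD1) and 80.0 CPM (GFP) in astrocyte-like cells (1.61).
Msmo1 had ratios of 1.96 in oligodendrocyte-like and 1.65 in astrocyte-like cells. Hsd17b7, a 3-ketosteroid reductase, had the largest ratio of the 11 genes in both classes. It was at 17.0 CPM (NeuroD1) and 6.10 CPM (GFP) in oligodendrocyte-like cells (2.79, interval 1.75 to 4.68) and at 22.2 CPM (NeuroD1) and 10.5 CPM (GFP) in astrocyte-like cells (2.12, interval 1.41 to 3.32). Tm7sf2 was at 53.4 CPM (NeuroD1) and 32.6 CPM (GFP) in astrocyte-like cells (1.64, interval 1.30 to 2.10). Nsdhl, which removes the C4 carboxyl groups, was at 55.9 CPM (NeuroD1) and 53.1 CPM (GFP) in astrocyte-like cells (1.05) and had a ratio of 1.51 (1.07 to 2.16) in oligodendrocyte-like cells. Toward the end of the arm, oligodendrocyte-like ratios were 1.16 for Ebp, the sterol isomerase, 1.41 for Sc5d, the sterol desaturase, and 1.63 for Dhcr7, which completes cholesterol from its dehydro form. Astrocyte-like ratios of the same genes were 1.26, 1.32 and 1.37.

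Among the regulators, ratios in astrocyte-like cells lay on both sides of 1, and in oligodendrocyte-like cells none was below it. Whether the classes differ was not tested. Srebf1 was at 169 CPM from 1838 UMIs (NeuroD1) and 482 CPM from 1198 UMIs (GFP) in astrocyte-like cells, a ratio of 0.350 (0.325 to 0.377). Srebf2 was at 92.5 CPM (NeuroD1) and 157 CPM (GFP) there (0.590), and Scap, their escort, at 41.6 CPM (NeuroD1) and 73.6 CPM (GFP) (0.565). Insig1 went the other way in the same cells, at 127 CPM (NeuroD1) and 61.5 CPM (GFP) (2.07, interval 1.75 to 2.46), and Insig2 was at 46.7 CPM (NeuroD1) and 38.6 CPM (GFP) (1.21). In oligodendrocyte-like cells Srebf2 was at 88.5 CPM (NeuroD1) and 49.4 CPM (GFP) (1.79) and Insig1 at 132 CPM (NeuroD1) and 76.9 CPM (GFP) (1.72), while Srebf1 (1.08) and Scap (1.07) differed by less than 1.5-fold. Endothelial cell-like cells had higher Insig1, at 36.8 CPM (NeuroD1) and 19.5 CPM (GFP) (1.89), Insig2, at 62.4 CPM (NeuroD1) and 36.8 CPM (GFP) (1.70), Srebf2 (1.63) and Srebf1 (1.51, an interval of 0.988 to 2.40). Stard4, highest in these cells, had a ratio of 1.37. In microglia-like cells Scap was at 29.2 CPM (NeuroD1) and 11.7 CPM (GFP) (2.49) and Insig2 at 49.7 CPM (NeuroD1) and 22.7 CPM (GFP) (2.20).

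The fatty acid arm split by gene. Scd2, a stearoyl-CoA desaturase abundant in brain, supplied 10538 of the 14542 UMIs of this arm in NeuroD1-library astrocyte-like cells and 4284 of 5458 UMIs in GFP-library ones. It was at 967 CPM (NeuroD1) and 1722 CPM (GFP) there (0.561, interval 0.542 to 0.582), and at 1360 CPM (NeuroD1) and 1610 CPM (GFP) in oligodendrocyte-like cells (0.844). Without Scd2 the arm had ratios of 0.778 in astrocyte-like and 1.51 in oligodendrocyte-like cells. Fasn, the fatty acid synthase, was at 61.7 CPM (NeuroD1) and 113 CPM (GFP) in astrocyte-like cells (0.544), Acaca, the acetyl-CoA carboxylase before it, at 12.7 CPM (NeuroD1) and 22.5 CPM (GFP) (0.562), and Scd1, a second desaturase, at 82.6 CPM (NeuroD1) and 140 CPM (GFP) (0.590). In oligodendrocyte-like cells Scd1 was at 102 CPM (NeuroD1) and 51.6 CPM (GFP) (1.97), and Fasn (1.17) and Acaca (0.861) differed by less than 1.5-fold. Scd1 and Scd2 are near-identical in part, so reads may have been split between them. Acss2, which makes acetyl-CoA from acetate, was higher in both, at 54.8 CPM (NeuroD1) and 22.0 CPM (GFP) in oligodendrocyte-like cells (2.49, interval 1.95 to 3.23) and at 116 CPM (NeuroD1) and 92.9 CPM (GFP) in astrocyte-like cells (1.25). Elovl6, an elongase of saturated fatty acids, had ratios of 1.60 in oligodendrocyte-like and 0.963 in astrocyte-like cells. In microglia-like cells Acly was at 100 CPM (NeuroD1) and 61.0 CPM (GFP) (1.64), while Scd2 was at 65.9 CPM (NeuroD1) and 125 CPM (GFP) (0.527), Scd1 at 4.34 CPM (NeuroD1) and 12.7 CPM (GFP) (0.341, from 11 NeuroD1 UMIs) and Acaca at 3.95 CPM (NeuroD1) and 9.43 CPM (GFP) (0.419, from 10 NeuroD1 UMIs).

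Each class was made of clusters in unequal shares between the libraries, so the genes were also compared within clusters. The astrocyte-like clusters were cluster 3, with 332 NeuroD1-library and 1529 GFP-library cells, cluster 6, with 1324 (NeuroD1) and 56 (GFP), and cluster 11, with 1078 (NeuroD1) and 28 (GFP). All 31 genes together had a ratio of 0.877 in the class, but 1.15, 1.43 and 1.11 (0.969 to 1.28) in clusters 3, 6 and 11. In cluster 6 the fatty acid arm had a ratio of 1.44 (1.21 to 1.72) and the regulators 1.37 (1.02 to 1.88). In cluster 11 these ratios were 0.698 (0.563 to 0.876) and 1.16 (0.786 to 1.80). In cluster 3 the sterol arm kept a ratio of 1.51 (1.40 to 1.61) and the mevalonate arm 1.49, while the fatty acid arm was at 2426 CPM (NeuroD1) and 2289 CPM (GFP) (1.06) and the regulators at 673 CPM (NeuroD1) and 862 CPM (GFP) (0.780). There 11 of 31 genes were at least 1.5-fold higher, against 11.3% of all genes in cluster 3, and Srebf1 alone was as far lower, against 19.0%. Scd2 was at 1876 CPM (NeuroD1) and 1807 CPM (GFP) (1.04), Fasn at 144 CPM (NeuroD1) and 118 CPM (GFP) (1.22), Scap at 84.6 CPM (NeuroD1) and 76.4 CPM (GFP) (1.11) and Srebf2 at 144 CPM (NeuroD1) and 165 CPM (GFP) (0.872). These 4 genes were each at least 1.5-fold lower in the whole class, and none was in cluster 3. Acaca, also lower in the class (0.562), was higher in cluster 3, at 38.1 CPM from 27 UMIs (NeuroD1) and 22.7 CPM from 52 UMIs (GFP), a ratio of 1.68 (1.01 to 2.72). Markers of microglia summed to 223 CPM (NeuroD1), with Itgax of 19 at 0, and 2192 CPM (GFP), with all 19 detected, in the whole astrocyte-like class, and their part was not tested.

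Msmo1 and Insig1 were higher in the NeuroD1 library in each astrocyte-like cluster, although the intervals of Insig1 hold 1 in clusters 6 and 11. Msmo1 was at 666 CPM (NeuroD1) and 379 CPM (GFP) in cluster 3, at 455 CPM (NeuroD1) and 290 CPM (GFP) in cluster 6 and at 1027 CPM (NeuroD1) and 668 CPM (GFP) in cluster 11, with 44 and 30 GFP-library UMIs in clusters 6 and 11. Insig1 was at 161 CPM (NeuroD1) and 61.1 CPM (GFP) in cluster 3, at 96.5 CPM (NeuroD1) and 52.7 CPM (GFP) in cluster 6 and at 193 CPM (NeuroD1) and 111 CPM (GFP) in cluster 11, with 8 and 5 GFP-library UMIs in clusters 6 and 11. Srebf1 was lower in cluster 3, at 230 CPM from 163 UMIs (NeuroD1) and 510 CPM from 1169 UMIs (GFP), a ratio of 0.450 (0.380 to 0.531). In clusters 6 and 11 it was not, at 137 CPM (NeuroD1) and 125 CPM (GFP) and at 230 CPM (NeuroD1) and 223 CPM (GFP), where the GFP library had 19 and 10 UMIs. Within the NeuroD1 library the 2 large clusters also differed: the sterol arm was at 2446 CPM in cluster 11, led by Tlcd1 and Gjb6, and 1241 CPM in cluster 6, led by Thrsp and Cpe. Cluster 5, low in UMIs and left unnamed, had ratios of 1.14 for the sterol arm and 0.506 for Srebf1.

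In oligodendrocyte-like cells, most NeuroD1-library cells were in cluster 0 (2964, with 232 from the GFP library) and most GFP-library cells in cluster 2 (2035, with 190 from the NeuroD1 library). Sterol arm ratios were 1.44 in cluster 0 and 1.20 in cluster 2, below the 1.65 of the whole class, and regulator ratios were 1.52 and 1.22. Acss2 kept its size in both, at 54.9 CPM (NeuroD1) and 21.5 CPM (GFP) (2.55) in cluster 0 and at 51.3 CPM (NeuroD1) and 22.0 CPM (GFP) (2.33) in cluster 2, as did Srebf2 (1.89 and 1.76). Fdft1 had ratios of 2.30 and 1.42, the second with an interval of 0.897 to 2.17. Markers of microglia summed to 183 CPM (NeuroD1) in oligodendrocyte-like cells, with Cst7 and Itgax of 19 markers at 0, and to 1833 CPM (GFP), with all 19 detected. Their part in the ratios was not tested.

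Endothelial cell-like cells showed the higher sterol arm in cluster 10, at 332 CPM (NeuroD1) and 187 CPM (GFP) (1.77, interval 1.35 to 2.32), but in cluster 4 it was at 295 CPM (NeuroD1) and 284 CPM (GFP) (1.04). Stard4 in cluster 4 was at 82.9 CPM (NeuroD1) and 82.2 CPM (GFP). Red blood cell markers summed to 18929 CPM (NeuroD1) and 64.5 CPM (GFP) in endothelial cell-like cells; in the GFP library Hbb-bt and Alas2 of 5 markers were at 0, and their part was not tested. In microglia-like cells, the cluster with over 100 cells in each library, cluster 7, had the sterol arm at 271 CPM (NeuroD1) and 211 CPM (GFP) (1.29) and Scd2 at 89.2 CPM (NeuroD1) and 88.1 CPM (GFP) (1.01), unlike the whole class. Of 17 measured genes 5 were higher there, against 26.1% of all genes in cluster 7, and 2 lower, against 12.5%. Insig2 was higher there too, at 61.6 CPM (NeuroD1) and 29.9 CPM (GFP) (2.06), but Scap, at 28.9 CPM (NeuroD1) and 20.4 CPM (GFP) (1.41), and Acly (1.41) were under 1.5-fold. Cyp51 and Sc5d, lower in the class, had ratios of 1.16 and 1.95 in cluster 7. Most of the other microglia-like cells belonged to 1 library: there were 18 (NeuroD1) and 2345 (GFP) in cluster 1, 7 (NeuroD1) and 1138 (GFP) in cluster 8, and 652 (NeuroD1) and 52 (GFP) in cluster 13.

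**Figure D4:**
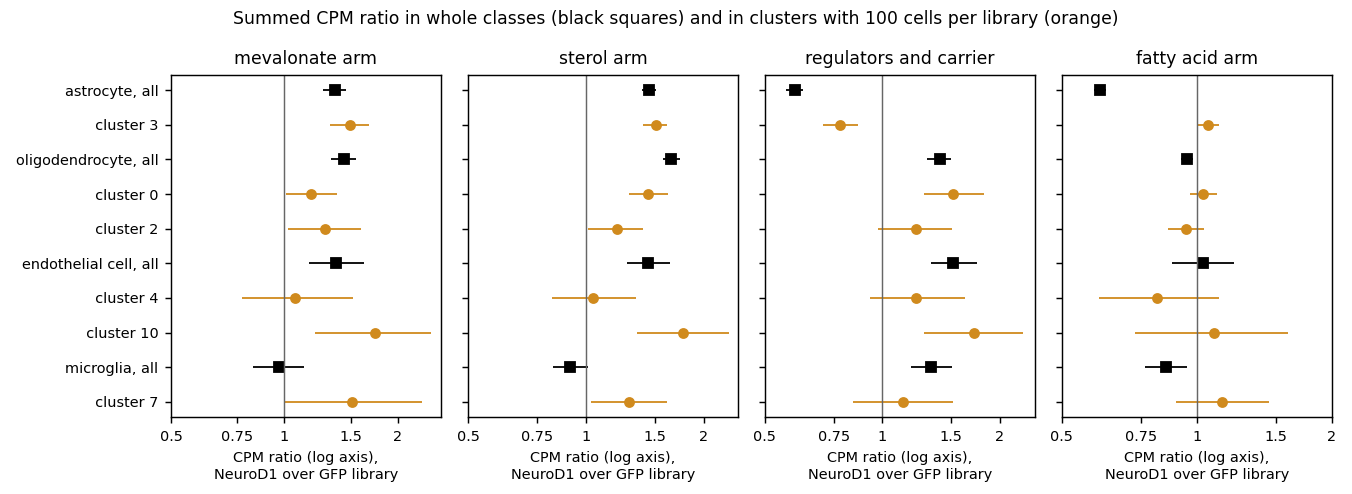
Ratio of summed CPM (NeuroD1 library over GFP library, log axis) of each gene group in whole classes (black squares) and in clusters with at least 100 cells in each library (orange circles), with 95% counting intervals. The fatty acid arm of astrocyte-like cells is at 0.608 in the class and 1.06 in cluster 3, and the sterol arm at 1.45 and 1.51.

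Vector GFP UMIs marked part of the astrocyte-like cells. In the NeuroD1 library 197 cells had one and 2537 did not, and in the GFP library 1023 did and 590 did not. Its level there was 47.1 CPM (NeuroD1) and 5817 CPM (GFP). Cells of other types also had GFP UMIs: 0.634% (NeuroD1) and 8.87% (GFP) of oligodendrocyte-like and 0.0812% (NeuroD1) and 7.18% (GFP) of microglia-like cells, against 7.21% (NeuroD1) and 63.4% (GFP) of astrocyte-like cells. Ratios here are of cells with a GFP UMI over cells without. In the NeuroD1 library the 31 genes together were at 2672 CPM in cells with GFP and 4114 CPM in cells without (0.650, interval 0.626 to 0.673), and in the GFP library at 4292 CPM with and 4937 CPM without (0.869). The sterol arm had the lowest ratio of the 4 groups in the NeuroD1 library, at 911 CPM with and 1685 CPM without (0.540), but was at 1099 CPM with and 1112 CPM without in the GFP library (0.988). Msmo1 was at 340 CPM with and 661 CPM without in the NeuroD1 library and at 372 CPM with and 391 CPM without in the GFP library. Srebf1 had nearly the same ratio in both libraries, at 129 CPM with and 174 CPM without (0.744) and at 431 CPM with and 581 CPM without (0.743).
Within cluster 6, which held 173 of the 197 cells with GFP in the NeuroD1 library, the sterol arm was at 861 CPM with and 1310 CPM without (0.657, interval 0.614 to 0.703). In cluster 11 it was at 1471 CPM with and 2469 CPM without from 14 cells with GFP (0.596), and in cluster 3 of the same library at 1692 CPM with and 1684 CPM without from 10 cells with GFP (interval of the ratio 0.704 to 1.39). Cells with GFP were deeper, at a median of 5689 UMIs with and 3132 without (NeuroD1 library) and 1431 with and 1184.5 without (GFP library), and a cell with more UMIs is more likely to show a rare RNA. The part of depth in these differences was not tested.

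**Figure D5:**
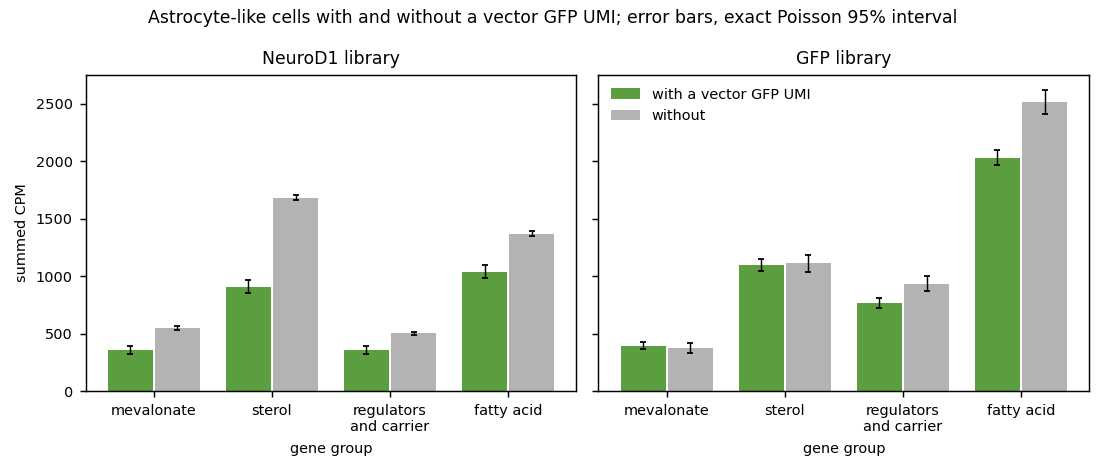
Summed CPM of each gene group in astrocyte-like cells with (green) and without (grey) a vector GFP UMI, with exact Poisson 95% intervals, in the NeuroD1 library (left) and the GFP library (right). The sterol arm is at 911 CPM with and 1685 CPM without in the left panel, and at 1099 CPM with and 1112 CPM without in the right panel.

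Among smaller classes, choroid plexus epithelium-like cells had all 31 genes at 868 CPM (NeuroD1) and 1194 CPM (GFP) (0.727). In these cells Ttr alone was at 458116 CPM (NeuroD1) and 294805 CPM (GFP), and with Ttr left out of the denominator the sums were 1602 (NeuroD1) and 1693 (GFP), a ratio of 0.946 with a lower bound of 0.894 and an upper bound at 1. With all UMIs in the denominator, 14 of 30 measured genes were at least 1.5-fold lower, against 31.4% of all genes, and 1 (Acss2) was higher, against 11.8%. The median log2 ratio of the list there, -0.32, was close to the -0.35 of all genes, and without Ttr in the denominator it was 0.06, with 5 higher and 7 lower. No share of all genes is given for the counts without Ttr. Insig1 was at 23.1 CPM (NeuroD1) and 81.8 CPM (GFP) (0.282, interval 0.222 to 0.361) and Hmgcs1 at 58.8 CPM (NeuroD1) and 126 CPM (GFP) (0.467). Immature neuron-like cells went the other way, with the 31 genes at 1909 CPM in 148 cells (NeuroD1) and 946 CPM in 91 cells (GFP), a ratio of 2.02 (1.72 to 2.38), including Msmo1 at 176 CPM (NeuroD1) and 31.2 CPM (GFP), from 81 (NeuroD1) and 6 (GFP) UMIs. The leading genes of this class included Igfbpl1 and Neurod1, but also the cell-cycle genes Ccnb2, Top2a and Mki67, so it held dividing cells. Whether the make-up of the class differed between the libraries was not tested. Neuron-like cells were at 1241 CPM (NeuroD1) and 2541 CPM (GFP), but came mainly from different clusters, with 166 (NeuroD1) and 74 (GFP) cells in cluster 16 and 7 (NeuroD1) and 121 (GFP) in cluster 22. Within cluster 16 the 31 genes were at 1122 CPM (NeuroD1) and 1152 CPM (GFP) (0.974), with the fatty acid arm at a ratio of 0.663. Within cluster 22 they were at 2157 CPM (NeuroD1) and 3138 CPM (GFP) (0.687, interval 0.557 to 0.842), where the fatty acid arm (0.299) and the regulators (0.448) were lower and the sterol arm was at 1.09. Pericyte-like and vascular smooth muscle-like cells had all 31 genes at 1053 CPM (NeuroD1) and 799 CPM (GFP), and at 897 CPM (NeuroD1) and 628 CPM (GFP). Red blood cell markers moved with both, at 3923 CPM (NeuroD1) and 4.57 CPM (GFP) in pericyte-like and 6747 CPM (NeuroD1) and 3.53 CPM (GFP) in vascular smooth muscle-like cells, where Hba-a2, Hbb-bs, Hbb-bt and Alas2 of 5 were at 0 in the GFP library. Endothelial markers in pericyte-like cells were at 13799 CPM (NeuroD1), with Selp of 17 at 0, and 4314 CPM (GFP), with Vwf, Ackr1 and Selp at 0. Their part was not tested.

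Other genes of these pathways were taken as fixed lists. Their counts are read against the shares of all genes given above for each class: 12.9% higher and 15.1% lower in oligodendrocyte-like, 11.2% and 25.8% in astrocyte-like, 35.0% and 18.2% in microglia-like, and 22.9% and 12.7% in endothelial cell-like cells.
Of 12 further fatty acid genes, 11 were measured in oligodendrocyte-like cells, with 2 higher (Fads1, 2.57, and Acsl3, 1.78) and 0 lower. In astrocyte-like cells 1 of 12 was higher, Thrsp, which promotes lipogenesis, at 1365 CPM (NeuroD1) and 546 CPM (GFP) (2.50), and 3 were lower, among them Elovl5 at 266 CPM (NeuroD1) and 433 CPM (GFP) (0.614). Thrsp also led astrocyte-like cluster 6, which had 1324 NeuroD1-library and 56 GFP-library cells. What part cluster shares have in these class ratios was not tested. Of 7 genes around the liver X receptor, a sterol sensor that also acts on Srebf1, 6 were measured in astrocyte-like cells. The cholesterol exporter Abca1 was lower, at 52.9 CPM (NeuroD1) and 201 CPM (GFP) (0.263, interval 0.233 to 0.297), and Apoe was at 44488 CPM (NeuroD1) and 39522 CPM (GFP) (1.13). In astrocyte-like cluster 3 no measured gene of this list had a log2 ratio below -0.83, against -1.92 for Abca1 in the class. In oligodendrocyte-like cells 5 of these 7 were measured, with 0 higher and 1 lower, Apoe at 4664 CPM (NeuroD1) and 9662 CPM (GFP) (0.483).
In microglia-like cells 3 of 12 fatty acid genes were higher and 2 lower, and 4 of 6 receptor-side genes were higher and 1 lower. Abca1 was higher there, at 152 CPM (NeuroD1) and 65.7 CPM (GFP) (2.31), and Apoe lower, at 2643 CPM (NeuroD1) and 28200 CPM (GFP) (0.0937). Clusters 1 and 8 held 2345 and 1138 GFP-library microglia-like cells, but 18 and 7 NeuroD1-library ones. Cluster 7 had over 100 cells in each library. No measured receptor-side gene there had a log2 ratio below -1.31, against -3.42 for Apoe in the class. The part of cluster shares was not tested. In endothelial cell-like cells 4 of 11 fatty acid genes were higher and 0 lower, and 1 of 7 receptor-side genes was higher and 1 lower.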

How the data were processed

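The deposited files are matrices of raw UMI counts per gene and cell barcode, 1 per library; per the submitters' processing notes the tools were FastQC, fastp, cutadapt, STAR and featureCounts with build mm39, and the minimum in the deposited files is 500 UMIs per cell. The description names 10x Genomics while the protocol, per the labels, describes a microwell chip, so the platform is uncertain. Members and lists were chosen with earlier results of these data known. Barcodes under 200 genes or over 20% mitochondrial UMIs were dropped (131 NeuroD1 and 104 GFP barcodes), and doublets called by Scrublet were removed (487 NeuroD1, 553 GFP). With scanpy 1.11.5 and leidenalg 0.10.2 (Python 3.11.15), cells were scaled to 10000 counts and clustered on 3000 variable genes, without the 31 genes and the other pathway genes, with 30 principal components, 15 neighbours and resolution 1.0. Clusters were named where at least 3 fixed markers were among 50 leading genes and markers of another type did not go against the name. Of 26 clusters, 2 stayed unnamed. One of them, cluster 5, had 6 astrocyte markers among its leading genes. It stayed unnamed because a red blood cell marker, and no astrocyte marker, was among the very first of them.

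UMIs were summed per class and library. Intervals on CPM are exact Poisson and those on ratios exact conditional binomial, at 95%, from scipy 1.17.1. Median log2 ratios add 0.5 UMI to each count. On simulated data the ratio intervals held the true ratio for 94.0% to 100.0% of genes over the simulated folds and classes. No test between groups was made, with 1 library each. All 31 members could be named; other genes came from fixed lists, of which the further sterol genes are not reported here. Promoter windows came from RefSeq tables of GRCm38.p6, another build than mm39, and 6 members (Scd1, Stard4, Fdft1, Scd2, Sqle, Fdps) were not matched there. Alternatives covered the UMI minimum, doublets, mitochondrial limit, resolution, denominator, thinning to 500 UMIs and shared clusters.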

Additional observations from a re-analysis of the deposited data

Results flagged for a closer look

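Among the oligodendrocyte-like, astrocyte-like, microglia-like and endothelial cell-like classes, 5 genes had ratios of NeuroD1-library over GFP-library CPM past 1.5-fold in opposite directions. Their counting intervals do not hold 1. No share of all genes with such opposite ratios is given, so the number 5 is not read as high or low. In microglia-like cells alone, 35.0% of all genes were higher and 18.2% lower. Smaller classes were left out of this count, although Insig1 and Hmgcs1, for example, were lower in choroid plexus epithelium-like cells. These differences between classes were not tested, since each library is a single one. Cyp51, the lanosterol demethylase, had a ratio of 1.77 in oligodendrocyte-like cells and 0.581 in microglia-like cells. Sc5d had 1.58 in endothelial cell-like cells and 0.631 in microglia-like cells. Srebf2 had 1.79 in oligodendrocyte-like cells and 0.59 in astrocyte-like cells. Scap, the SREBP escort, had 2.49 in microglia-like cells and 0.565 in astrocyte-like cells. Scd1 had 1.97 in oligodendrocyte-like cells and 0.341 in microglia-like cells. Microglia-like cells of the libraries came mostly from different clusters, and within cluster 7, with over 100 cells in each, the ratios were 1.16 for Cyp51, 1.95 for Sc5d and 1.41 for Scap. The lower Scd1 in microglia-like cells rests on 11 NeuroD1 UMIs and its log2 ratio was -0.22 with doublets kept and -0.55 at 10% mitochondrial UMIs, against -1.50 as reported. Within cluster 3 of the astrocyte-like cells Srebf2 had a ratio of 0.872 and Scap 1.11.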

How the results depend on the processing

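No paired analysis was possible because each group is 1 library and the shared replicate number 1 pairs nothing. The median log2 ratio over the genes ranged over its alternatives between 0.26 and 0.58 in oligodendrocyte-like cells, 0.23 and 0.42 in astrocyte-like, 0.06 and 0.73 in endothelial cell-like and -0.42 and 0.39 in microglia-like cells. The 0.39 came from clusters with 100 cells in each library, which hold 17 measured genes, against -0.11 in the whole class. In these shared clusters, 11 genes (main count 7) were higher and 1 (main 7) lower in astrocyte-like cells, and 2 (main 9) lower in microglia-like cells. Of the genes past 1.5-fold in the class, 4 of 14 turned sign in astrocyte-like cluster 3 (Scap, Acaca, Fasn with a log2 ratio of 0.29 and Scd2 with 0.05) and 3 of 6 in microglia-like cluster 7 (Cyp51, Sc5d and Scd2, 0.02). Both oligodendrocyte-like clusters are shared, so there this setting repeats the class. Clusters alone and the denominator without Ttr were chosen after seeing the data: cluster 0 gave 1 lower and cluster 2 gave 7 higher and 3 lower in oligodendrocyte-like cells (main 16 and 0), endothelial cell-like medians were 0.06 in cluster 4 and 0.73 in cluster 10 (main 0.43), with Insig1 at -0.26 in cluster 4, and choroid plexus epithelium-like cells without Ttr gave a median of 0.06 (main -0.32), 5 higher (main 1) and 7 lower (main 14). For the counts without Ttr and for those that follow, no share of all genes is given. Centred on the median of all genes, 7 (main 12) were higher in endothelial cell-like and 2 (main 4) in microglia-like cells. With doublets kept, 8 were higher (main 4) and 5 lower (main 9) in microglia-like cells and 1 (main 2) lower in endothelial cell-like cells. Thinned to 500 UMIs per cell, 6 were higher in endothelial cell-like cells (main 12), 5 lower in microglia-like (main 9), 2 lower in oligodendrocyte-like (main 0) and 0 lower in endothelial cell-like cells (main 2), as with a mean over cells or a minimum of 50 UMIs, both 0. Beyond the shared clusters and these settings the causes were not tested. Srebf1 in astrocyte-like cells kept a log2 ratio between -1.51 and -1.15. Counting cluster 5 as astrocyte-like, chosen after seeing the data, left 7 higher and 7 lower with a median of 0.27. Depth limits genes with few GFP-library UMIs, such as Lss in endothelial cell-like cells (36 NeuroD1 and 1 GFP UMIs).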
